A study of Mus musculus with 12 samples.

Results

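Type I interferon-induced antiviral genes were followed in bulk RNA of the mouse pylorus, the outlet of the stomach. The set is a list of 40 gene symbols, taken by name from a count table of 23420 genes, with the oligoadenylate synthetases and guanylate-binding proteins left out. All 40 symbols were found, and all 40 passed the filter on low counts, as did 15369 genes of the table. The libraries came from wild-type C57BL/6 mice and from CEA424-SV40 T Ag transgenic mice on the same strain, 60 days (D60) or 80 days (D80) old, with 3 libraries per group and 12 in all. The groups are called D60WT, D80WT, D60SV and D80SV. The transgene puts the SV40 T antigen, a viral protein that disables p53 and the retinoblastoma family, under a promoter of the carcinoembryonic antigen gene, which is active in epithelium. Per the series' title, the transgenic mice develop gastric cancer spontaneously. No treatment is given for any group, and SV40 sequence was not analysed here. The labels do not say that each library came from its own animal, so the p-values measure the spread between libraries, which may be technical.

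Library totals ran from 20121600 to 27633715 counts. Levels are CPM, counts divided by library size in units of 1e+06 after TMM scaling (a trimmed mean of log ratios), and group values are mean ± SD of 3 libraries. Marker genes of the pyloric stomach were present in every library, and their summed level was 40900.0 to 56240.0 CPM in D80SV and 125300.0 to 214900.0 CPM in the other 9 libraries. Genotype and sex coincided at D60. The 3 D60WT libraries held at most 0.0476 CPM of Xist, the RNA of the inactive X chromosome, and 93.9 to 103 CPM of 4 Y-linked genes, whereas the D60SV and D80WT libraries held Xist and no Y-linked counts. In D80SV, replicate 1 was of the male type and the other 2 held Xist. In their counts, the 3 D80WT libraries differed more from each other than those of any other group, and replicate 1 was the farthest from the other 2. D80WT replicate 1 held 14890 CPM of the stomach gene Gkn1, against 28130 to 49880 in the other 5 wild-type libraries. Its duodenal enterocyte markers summed to 364.5 CPM, the lowest of the wild-type libraries. D80WT replicate 3 held 9747 summed CPM of duodenal enterocyte markers and 87.1 of T and NK cell markers, against at most 2081 and 18.2 in the other 5 wild-type libraries.

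Type I interferons are secreted cytokines that bind the receptor Ifnar1 and Ifnar2 and activate the kinases Jak1 and Tyk2. Stat2 and Irf9 then act in the transcription factor ISGF3, which binds the interferon-stimulated response element (ISRE) in the promoters of many genes. Products of these genes sense viral RNA, block viral translation and replication, modify proteins with the ubiquitin-like Isg15 and feed back on the pathway. Type III interferons, which act mostly on epithelium, use the same factor, so these transcripts do not tell the classes of interferon apart.

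Promoter windows from RefSeq on GRCm38.p6, 250 bases before to 50 bases after a gene's start, were matched by symbol for 31 of the 40 genes. The core of the ISRE, GAAANNGAAA on either strand, was found in a window of 16 of these 31 genes (51.6%). Of 27025 genes with a window, 3.99% held it. The core of the gamma-activated site, TTCNNNGAA, which reads the same on both strands, was found for 5 of the 31 genes (16.1%) and for 9.55% of all genes. The 2 motifs may overlap. Stretches of 60 bases upstream of the start are shown for 7 genes, chosen because they include genes with large differences at D60 (Isg15, Ifit1 and Ddx60), a factor of the pathway itself (Stat2), a gene with little spread between libraries (Bst2), a gene that passed at both ages (Ifit3) and one that passed at D80 and not at D60 (Slfn5). Each runs 5′ to 3′ on the strand of the gene, and capitals mark the ISRE core, written as TTTCNNTTTC where it lies on the other strand. By GENCODE M21, none of the 7 stretches overlaps an exon of the gene it is shown for. That of Ddx60 shares 2 bases with an exon of the lncRNA Gm45418 on the other strand, and that of Slfn5 lies in introns of a longer Slfn5 transcript and of the antisense gene Slfn5os.
Isg15, chr4:156200850-156200909, minus strand: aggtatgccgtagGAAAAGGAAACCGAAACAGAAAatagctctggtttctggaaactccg
Ifit1, chr19:34640779-34640838, plus strand: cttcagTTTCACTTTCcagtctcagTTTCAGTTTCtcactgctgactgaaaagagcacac
Ifit3, chr19:34583382-34583441, plus strand: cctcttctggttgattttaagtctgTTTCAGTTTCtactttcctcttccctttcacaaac
Ddx60, chr8:61928027-61928086, plus strand: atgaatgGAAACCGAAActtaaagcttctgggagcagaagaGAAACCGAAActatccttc
Bst2, chr8:71537562-71537621, minus strand: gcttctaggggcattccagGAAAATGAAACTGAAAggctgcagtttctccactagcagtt
Stat2, chr10:128270251-128270310, plus strand: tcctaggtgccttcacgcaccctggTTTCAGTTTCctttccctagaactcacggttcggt
Slfn5, chr11:82951922-82951981, plus strand: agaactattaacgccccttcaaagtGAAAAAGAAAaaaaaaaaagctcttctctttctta
A stretch was shown only for a gene with an ISRE core wholly upstream of the start, so a core in every stretch is not a result. The Isg15 stretch holds 3 overlapping cores in a row, the Ifit1, Ddx60 and Bst2 stretches hold 2 each, and those of Ifit3, Stat2 and Slfn5 hold 1. No ISRE core was found in the windows of Irf7, Irf9, Helz2, Sp100, Uba7, Trim25, Herc6, Dtx3l, Ifit2, Samd9l, Cmpk2, Ifi44, Ifi35, Xaf1 and Lgals3bp. Not among the 31 genes were Dhx58, Zbp1, Usp18, Parp9, Parp14, Mx1, Mx2, Ifi27l2a and Rtp4.

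The comparison of D60SV with D60WT shows how these genes stood in the transgenic pylorus at the younger age. With the edgeR quasi-likelihood test, 34 of 40 passed an adjusted p of 0.05, all higher in D60SV, against 3.66% of all genes tested that were called higher and 0.241% called lower. In bulk RNA, fewer cells of a type and less RNA per cell cannot be told apart. The median log2 fold change was 2.01, with a range of 0.44 to 5.26, and the median over all genes was -0.0041. In 38 of the 40 genes the 3 D60SV libraries lay above the 3 D60WT libraries, an order shown by 12.2% of all genes. The other 6 genes, which did not pass, were Ifit2, Slfn5, Samd9l, Mx1, Trim25 and Ifi27l2a, and each had a positive fold change.

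The same question was asked of the older transgenic pylorus. At D80, 20 of 40 were higher and none lower, against 19.4% of all genes called higher and 22% called lower. The median log2 fold change was 0.84, and the median of all genes was -0.0742. The D80SV libraries lay above the D80WT libraries without overlap in 18 of 40 genes, an order found in 24.4% of all genes. The median stood above that of all genes, whereas the share without overlap was nearer its background. The count of 20 was 29 without D80WT replicate 3, with a median of 1.19, and 13 without D80SV replicate 3, with a median of 0.759. Of all genes tested, 2816 of 15602 were higher and 2830 lower in the first of these fits. In the second, 2528 of 15468 were higher and 1888 lower.

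**Figure D1:**
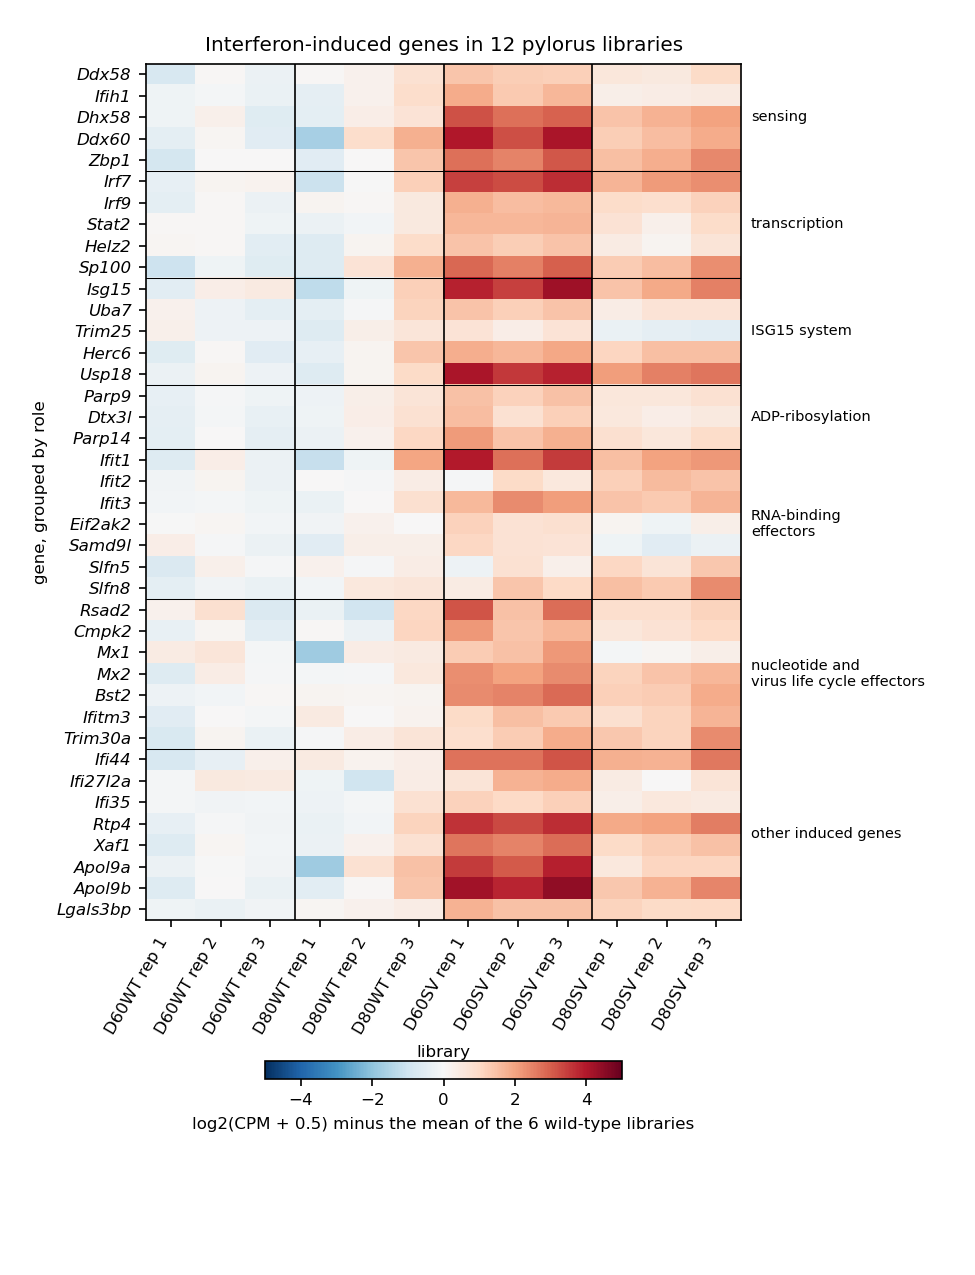
Level of each of the 40 genes (rows, grouped by role) in each of the 12 libraries (columns), as log2(CPM + 0.5) minus the mean of the 6 wild-type libraries. The D60SV columns are the darkest red for 32 of 40 genes, the D80SV columns are paler, and D80WT replicate 3 is the highest wild-type library for 34 genes.

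Within the transgenic mice, 26 of the 40 genes were lower at D80 than at D60 and 1 was higher, against 18% and 17.7% of all genes. The median log2 fold change was -1.02, where all genes had a median of 0.0227. In 33 genes the D80SV libraries lay below the D60SV libraries with no overlap, as in 28% of all genes. In wild-type, age and sex coincided, so the effects of the 2 cannot be told apart there. Wild-type mice showed no call between ages, in these genes or in any other (background 0%). Xist was not called either, at no more than 0.0476 CPM in D60WT and 90.1 to 122 in D80WT. The lack of calls is therefore not a lack of differences. Between the wild-type ages 9 of the 40 genes had an unadjusted p under 0.05, as had 1925 of all 15369, and DESeq2 called 1 of the 40 and 254 genes in all. Without D80WT replicate 1, 396 genes were called between the wild-type ages, among them Apol9a, Ddx60, Parp9 and Sp100. In 32 of 40 genes the 3 D60SV libraries lay above all 9 other libraries, an order shown by 0.703% of all genes. All 6 transgenic libraries lay above all 6 wild-type libraries in 15 genes, against 5.01%. Within wild-type, D80WT replicate 3 was the highest of the 6 libraries for 34 of the 40 genes, as it was for 23% of all genes. In 12 genes the order D60SV, D80SV, wild-type held with no overlap at either step, against 0.163% of all genes. The D60 comparison and the comparison between ages share the D60SV libraries, so their values are not independent.

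Sensors of viral nucleic acid were all higher at D60. Of 5 genes, 5 passed at D60, 2 at D80, and 3 were lower at D80 than at D60 in transgenic mice. Dhx58 encodes LGP2, a helicase that tunes the RNA sensors RIG-I and MDA5, and stood at 3.52, 5.09 and 2.52 CPM in the D60WT libraries, 2.80, 5.38 and 7.02 in D80WT, 41.9, 30.8 and 35.6 in D60SV and 12.1, 14.8 and 18.3 in D80SV. Its lowest transgenic library lay above its highest wild-type library, and D60SV lay above D80SV. Its log2 fold change was 3.28, SE 0.34, adjusted p = 1.6e-04 at D60 and 1.57, SE 0.32, adjusted p = 0.0028 at D80. Ifih1, which encodes MDA5 itself, stood at 22.0, 24.2 and 20.1 CPM in the D60WT libraries, 18.4, 29.9 and 48.1 in D80WT, 94.0, 64.8 and 81.3 in D60SV and 31.6, 33 and 34.9 in D80SV. The D80SV values fell inside the D80WT range, which reached 48.1 CPM in replicate 3, while D60SV was clear of both. The log2 fold change was 1.86, SE 0.28, adjusted p = 0.0019 at D60 and 0.05, SE 0.27, adjusted p = 0.90 at D80. The helicase gene Ddx60, a helper of RIG-I, stood at 3.83, 5.98 and 3.66 CPM in the D60WT libraries, 1.42, 10.9 and 20.2 in D80WT, 98.5, 56.3 and 104 in D60SV and 13.9, 17.3 and 21.4 in D80SV, and its log2 fold change was 4.26, SE 0.69, adjusted p = 0.0034 at D60 and 0.70, SE 0.61, adjusted p = 0.38 at D80. Zbp1, a sensor of Z-form nucleic acid that can trigger necroptosis, stood at 2.04, 4.24 and 4.28 CPM in the D60WT libraries, 2.64, 4.28 and 11.9 in D80WT, 31.2, 25.5 and 39.7 in D60SV and 12.7, 16.0 and 24.6 in D80SV. It passed at both ages (3.18, SE 0.51, adjusted p = 0.0033 and 1.5, SE 0.48, adjusted p = 0.026), and its D80 call ended without D80WT replicate 2 (adjusted p = 0.090) or D80SV replicate 3 (adjusted p = 0.096). Ddx58, which encodes RIG-I, was at 12.7 ± 3.75 CPM in D60WT and 38.7 ± 2.92 in D60SV (adjusted p = 0.0020), and at 20.4 ± 5.71 and 25.4 ± 4.52 at D80 (adjusted p = 0.30).

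The transcription factors of the pathway rose at D60 as well. All 5 genes of this group passed at D60, 3 passed at D80, and 4 were lower at D80 than at D60 in transgenic mice. Irf9, the DNA-binding part of ISGF3 (chromosome 14, 55603571 to 55610030, GENCODE M21 on GRCm38), stood at 12.9, 19.0 and 14.9 CPM in the D60WT libraries, 19.7, 18.9 and 25.9 in D80WT, 62.8, 53.5 and 56.0 in D60SV and 34.4, 32.4 and 40.5 in D80SV. The libraries kept the order D60SV, D80SV, wild-type with no overlap. The log2 fold change was 1.88, SE 0.17, adjusted p = 6.8e-05 at D60 and 0.73, SE 0.17, adjusted p = 0.0051 at D80. Stat2, its partner in ISGF3, stood at 23.8, 23.6 and 19.8 CPM in the D60WT libraries, 18.5, 20.7 and 32.5 in D80WT, 72.8, 74.0 and 74.7 in D60SV and 38.4, 27.0 and 43.6 in D80SV. D80SV replicate 2 lay below D80WT replicate 3, so the D80 groups overlapped. Stat2 passed at D60 (1.72, SE 0.22, adjusted p = 6.4e-04) and narrowly at D80 (0.60, SE 0.21, adjusted p = 0.040), and that D80 call ended without D60WT replicates 2 or 3, D80WT replicates 1 or 2, D60SV replicates 1 or 3 or D80SV replicates 1 or 3 (adjusted p = 0.050 to 0.13, 1 library left out at a time). Irf7, which drives the interferon-alpha genes and is itself induced, stood at 13.1, 19.4 and 19.9 CPM in the D60WT libraries, 8.21, 17.4 and 41.1 in D80WT, 191, 176 and 236 in D60SV and 58.8, 79.1 and 89.3 in D80SV. It was clear of wild-type at both ages, with 3.52, SE 0.47, adjusted p = 8.8e-04 at D60 and 1.77, SE 0.44, adjusted p = 0.0076 at D80. Sp100, a scaffold of nuclear bodies, rose at D60 (3.54, SE 0.55, adjusted p = 0.0027) and gave 0.89, SE 0.50, adjusted p = 0.17 at D80, and its wild-type values ran from 2.47 to 20.5 CPM, the highest in D80WT replicate 3. Without that library the D80 difference passed (1.69, SE 0.44, adjusted p = 0.013). The helicase and coactivator gene Helz2 gave 1.49, SE 0.32, adjusted p = 0.022 at D60 and 0.16, SE 0.31, adjusted p = 0.72 at D80. The D60 call of Helz2 ended without D60WT replicates 1, 2 or 3 or D60SV replicates 1, 2 or 3 (adjusted p = 0.051 to 0.12, 1 library left out at a time).

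**Figure D2:**
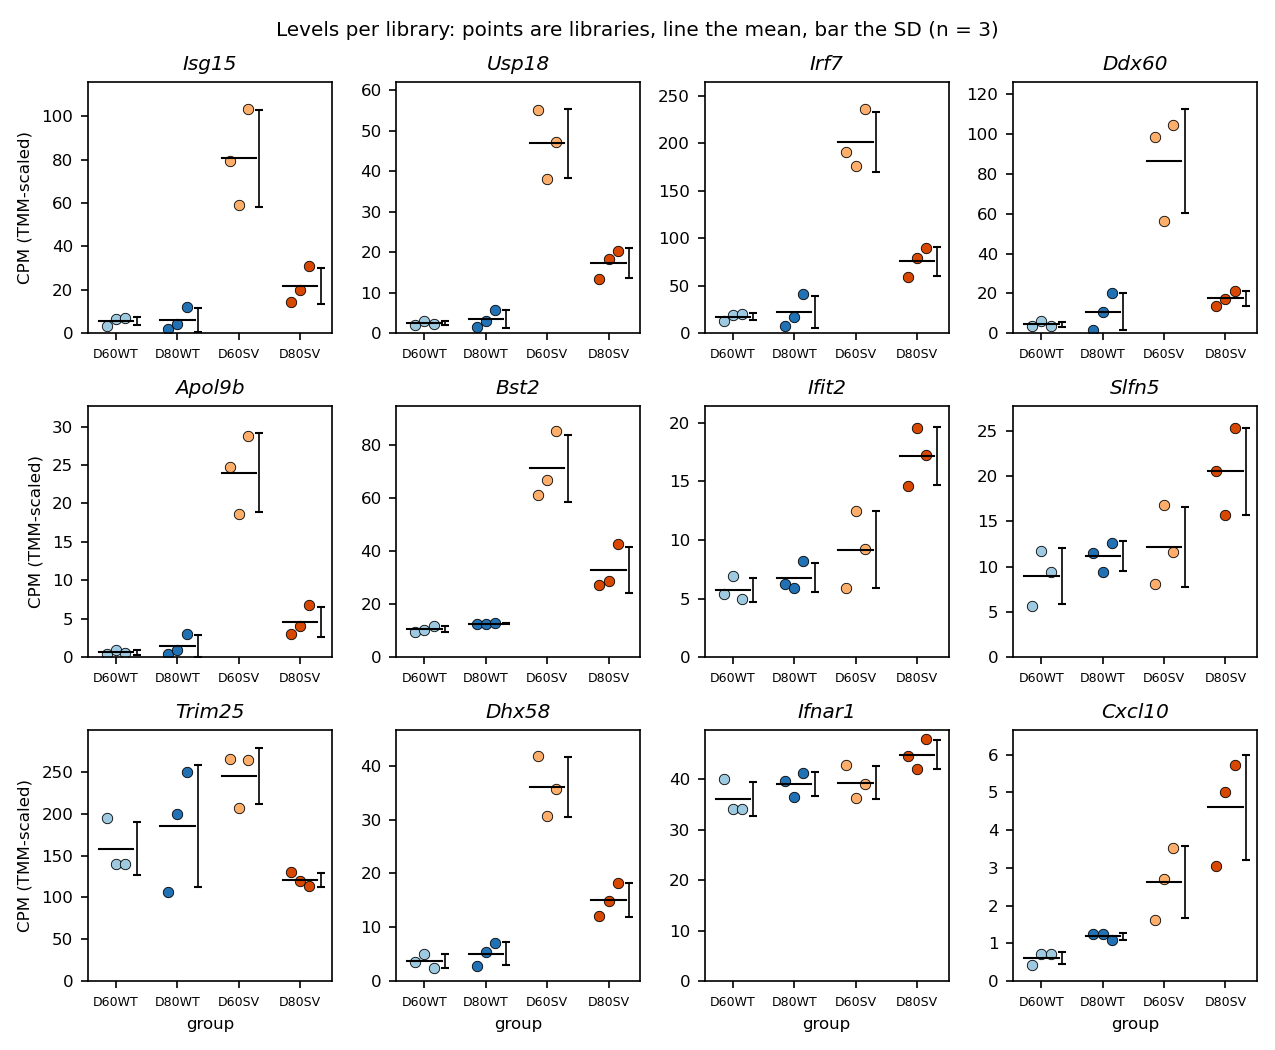
TMM-scaled CPM of 10 interferon-induced genes and of Ifnar1 and Cxcl10 in each group; points are libraries, the line is the mean and the bar is the SD of 3 libraries, on linear axes that start at 0. Isg15, Usp18, Irf7, Ddx60, Apol9b, Bst2 and Dhx58 are highest in the 3 D60SV libraries, while Ifit2, Slfn5 and Cxcl10 have their highest means in D80SV.

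Isg15 is a ubiquitin-like protein that is joined to other proteins by Uba7 and ligases and removed by Usp18. Of the 5 genes of the Isg15 system 4 rose at D60 and 2 passed at D80. Isg15 itself (chromosome 4, 156199424 to 156200818) stood at 3.33, 6.5 and 7.14 CPM in the D60WT libraries, 1.79, 4.32 and 12.1 in D80WT, 79.4, 58.9 and 103 in D60SV and 14.3, 20.2 and 31.0 in D80SV. The lowest D60SV library was at 58.9 CPM and the highest of the other 9 at 31.0. Its log2 fold change was 3.82, SE 0.59, adjusted p = 0.0024 at D60 and 1.85, SE 0.55, adjusted p = 0.019 at D80, and the D80 call ended without D80WT replicate 2 (adjusted p = 0.071) or D80SV replicate 3 (adjusted p = 0.073). Usp18, which also blocks signalling at Ifnar2, stood at 2.16, 3.11 and 2.28 CPM in the D60WT libraries, 1.58, 3.13 and 5.85 in D80WT, 55.2, 38.2 and 47.3 in D60SV and 13.4, 18.4 and 20.3 in D80SV. It had the largest D80 change of the 40 genes (2.30, SE 0.37, adjusted p = 6.2e-04, after 4.21, SE 0.40, adjusted p = 8.4e-05 at D60), and no overlap with wild-type at either age. The D80SV mean of 17.4 ± 3.59 CPM was below the D60SV mean of 46.9 ± 8.54 (-1.43, SE 0.34, adjusted p = 0.0082). Uba7, the activating enzyme, was at 16.5 ± 4.27 CPM in D60WT and 48.0 ± 4.63 in D60SV (1.54, SE 0.34, adjusted p = 0.027), a call that ended without D60WT replicates 2 or 3 or D60SV replicates 1, 2 or 3 (adjusted p = 0.060 to 0.14, 1 library left out at a time). Herc6, the main Isg15 ligase of mice, gave 2.30, SE 0.43, adjusted p = 0.0083 at D60, a call lost without D60WT replicate 1 (adjusted p = 0.051) or D60WT replicate 3 (adjusted p = 0.058), and 0.85, SE 0.40, adjusted p = 0.11 at D80. Without D80WT replicate 3 the D80 differences of Herc6 (1.61, SE 0.28, adjusted p = 0.0017) and Uba7 (0.87, SE 0.21, adjusted p = 0.010) passed. Trim25, a ubiquitin ligase that acts on RIG-I, stood at 195, 140.0 and 139.7 CPM in the D60WT libraries, 107, 200.3 and 249.9 in D80WT, 266, 207 and 265 in D60SV and 130.1, 119 and 114 in D80SV. It passed in neither genotype comparison (0.64, SE 0.26, adjusted p = 0.26 at D60 and -0.62, SE 0.26, adjusted p = 0.072 at D80), and was lower in D80SV than in D60SV (-1.02, SE 0.26, adjusted p = 0.010). Without D80WT replicate 1 it passed in both (0.64, SE 0.16, adjusted p = 0.046 at D60 and -0.90, SE 0.18, adjusted p = 0.0019 at D80), with the sign reversing between ages.

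Parp9 and Dtx3l form a complex that adds ADP-ribose to ubiquitin, and Parp14 is a related ADP-ribosyltransferase. All 3 passed at D60, none at D80, and all 3 were lower at D80 than at D60 in transgenic mice. Parp9 stood at 20.3, 26.3 and 23.3 CPM in the D60WT libraries, 22.9, 34.0 and 43.5 in D80WT, 77.1, 61.7 and 75.5 in D60SV and 40.5, 41.0 and 46.5 in D80SV. It gave 1.61, SE 0.20, adjusted p = 5.9e-04 at D60, 0.35, SE 0.20, adjusted p = 0.17 at D80 and -0.74, SE 0.20, adjusted p = 0.014 between ages in transgenic mice, and the last ended without D80SV replicate 2 (adjusted p = 0.052). The values of Parp14 were 15.5, 22.5 and 15.8 CPM in the D60WT libraries, 18.0, 25.4 and 45.2 in D80WT, 98.5, 60.7 and 75.8 in D60SV and 38.9, 32.6 and 42.6 in D80SV. At D80, D80WT replicate 3, at 45.2 CPM, lay above all 3 D80SV libraries. The log2 fold change was 2.13, SE 0.31, adjusted p = 0.0016 at D60 and 0.37, SE 0.30, adjusted p = 0.35 at D80. Without D80WT replicate 3 the D80 differences passed for Parp9 (0.58, SE 0.18, adjusted p = 0.028) and Parp14 (0.81, SE 0.24, adjusted p = 0.025). Between ages in transgenic mice Parp14 gave -1.04, SE 0.30, adjusted p = 0.019, a call that ended without D60SV replicate 1 (adjusted p = 0.075) or D80SV replicate 2 (adjusted p = 0.074). Dtx3l, the ubiquitin ligase of the pair, gave 1.52, SE 0.24, adjusted p = 0.0030 at D60, 0.11, SE 0.24, adjusted p = 0.73 at D80 and -0.75, SE 0.24, adjusted p = 0.028 between ages in transgenic mice, the last lost without D60SV replicates 1 or 3 or D80SV replicates 1, 2 or 3 (adjusted p = 0.052 to 0.12, 1 library left out at a time). Parp9 and Dtx3l lie on opposite strands of chromosome 16, and 458 exon bases belong to both. Whether the counting used strand is not given in the sources used here, so their counts are not fully separate. Exons on the other strand also overlap 16.8% of the exon bases of Ifi35, 8.84% of Slfn5 (from Slfn5os) and at most 4.44% of Dhx58, Irf7, Usp18 and Eif2ak2.

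Among the genes whose products bind RNA or act on translation, 4 of 7 passed at D60 (Ifit1, Ifit3, Eif2ak2 and Slfn8) and 4 at D80 (Ifit2, Ifit3, Slfn5 and Slfn8). Ifit1, which binds viral RNA that lacks the host cap methylation, stood at 2.53, 5.42 and 3.33 CPM in the D60WT libraries, 1.62, 3.62 and 18.1 in D80WT, 74.2, 31.5 and 53.4 in D60SV and 13.0, 18.7 and 20.7 in D80SV. D80WT replicate 3 was well above the other wild-type libraries and inside the D80SV range. The call at D60 (3.81, SE 0.73, adjusted p = 0.011) ended without D60WT replicate 1 (adjusted p = 0.064) or D60WT replicate 3 (adjusted p = 0.070), and D80 gave 1.16, SE 0.66, adjusted p = 0.18, which passed without D80WT replicate 3 (2.74, SE 0.47, adjusted p = 0.0016). Ifit3, a partner that stabilises Ifit1, stood at 3.83, 3.96 and 3.52 CPM in the D60WT libraries, 3.21, 4.23 and 7.62 in D80WT, 14.1, 24.0 and 19.4 in D60SV and 12.3, 11.3 and 14.7 in D80SV, with no overlap between genotypes at either age (2.35, SE 0.30, adjusted p = 7.3e-04 at D60 and 1.35, SE 0.29, adjusted p = 0.0038 at D80). Of the 50-base words of its transcripts 51.2% also occur in the neighbouring copy Ifit3b, so its counts are uncertain. Ifit2, the next gene on chromosome 19, 7111 bases away, had another pattern. Its values were 5.37, 6.92 and 5.0 CPM in the D60WT libraries, 6.22, 5.91 and 8.23 in D80WT, 5.90, 12.5 and 9.19 in D60SV and 14.6, 19.5 and 17.3 in D80SV. The D60 groups overlapped (0.67, SE 0.26, adjusted p = 0.25), D80SV was clear of D80WT (1.34, SE 0.26, adjusted p = 0.0021), and Ifit2 was the 1 gene of the 40 that was higher in D80SV than in D60SV (0.90, SE 0.26, adjusted p = 0.019), a call that ended without D60SV replicates 1 or 3 or D80SV replicate 2 (adjusted p = 0.058 to 0.071, 1 library left out at a time).

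Eif2ak2 encodes PKR, the kinase that stops translation on double-stranded RNA, and stood at 30.5, 33.8 and 27.9 CPM in the D60WT libraries, 27.8, 36.2 and 31.8 in D80WT, 70.0, 51.2 and 54.5 in D60SV and 34.6, 26.8 and 38.2 in D80SV. It rose at D60 (0.93, SE 0.17, adjusted p = 0.0066), and its D80 genotypes overlapped (0.06, SE 0.17, adjusted p = 0.80). Samd9l, a restriction factor for poxviruses, had values of 107, 81.0 and 69.5 CPM in the D60WT libraries, 56.7, 105 and 105 in D80WT, 175, 141 and 139 in D60SV and 73.8, 57.9 and 69.3 in D80SV. Its D60 libraries did not overlap, yet the difference did not pass (0.82, SE 0.23, adjusted p = 0.087), nor did that at D80 (-0.41, SE 0.23, adjusted p = 0.18, and 0.03 with no composition factor). Without D80WT replicate 1 both passed (0.82, SE 0.16, adjusted p = 0.012 and -0.65, SE 0.18, adjusted p = 0.012), with opposite signs. Slfn5 and Slfn8 belong to the Schlafen family of RNA-directed proteins. Slfn5 stood at 5.68, 11.8 and 9.47 CPM in the D60WT libraries, 11.5, 9.44 and 12.7 in D80WT, 8.09, 16.9 and 11.6 in D60SV and 20.6, 15.7 and 25.3 in D80SV. It overlapped at D60 (0.44, SE 0.31, adjusted p = 0.59) and was higher in D80SV (0.88, SE 0.30, adjusted p = 0.037), a call that ended without D60WT replicate 3, D80WT replicates 1 or 2, D60SV replicate 3 or D80SV replicates 1 or 3 (adjusted p = 0.051 to 0.12, 1 library left out at a time). Slfn8 was at 0.538 ± 0.114 CPM in D60WT, 2.07 ± 0.848 in D60SV, 1.18 ± 0.424 in D80WT and 4.02 ± 1.92 in D80SV. It passed at D60 (1.92, SE 0.47, adjusted p = 0.044) and at D80 (1.77, SE 0.43, adjusted p = 0.0070), and the D60 call ended without D60WT replicates 1, 2 or 3, D80WT replicate 2, D60SV replicates 2 or 3 or D80SV replicate 1 (adjusted p = 0.058 to 0.19, 1 library left out at a time).

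Genes that act on nucleotides, virus entry or virus release were mostly higher at D60, 6 of 7, and 4 of 7 passed at D80. Bst2, or tetherin, which holds budding virions at the cell surface (chromosome 8, 71534255 to 71537456), varied little between wild-type libraries. It stood at 9.51, 10.4 and 11.9 CPM in the D60WT libraries, 12.6, 12.4 and 12.7 in D80WT, 61.0, 67.0 and 85.4 in D60SV and 27.1, 28.8 and 42.7 in D80SV. Wild-type libraries spanned 9.51 to 12.7 CPM, and no transgenic library was under 27.1. The log2 fold change was 2.74, SE 0.19, adjusted p = 1.5e-05 at D60, 1.38, SE 0.19, adjusted p = 1.8e-04 at D80 and -1.11, SE 0.18, adjusted p = 0.0011 between ages in transgenic mice. Ifitm3, which blocks fusion of virus in endosomes, stood at 29.5, 45.3 and 41.4 CPM in the D60WT libraries, 61.5, 44.8 and 50.9 in D80WT, 86.8, 128 and 110.2 in D60SV and 78.6, 98.1 and 147 in D80SV. Its difference was 1.48, SE 0.24, adjusted p = 0.0039 at D60 and 1.04, SE 0.24, adjusted p = 0.0055 at D80, and D60SV and D80SV overlapped (-0.01, SE 0.24, adjusted p = 0.98, and a log2 fold change of 0.36 with no composition factor). Rsad2, or viperin, and Cmpk2 are neighbours on chromosome 12 that together make an antiviral nucleotide. Rsad2 was at 4.25 ± 2.27 CPM in D60WT and 24.7 ± 12.6 in D60SV (2.54, SE 0.59, adjusted p = 0.034), a call that ended without D60WT replicates 1 or 3, D60SV replicates 1 or 3 or D80SV replicates 1, 2 or 3 (adjusted p = 0.053 to 0.15, 1 library left out at a time). Cmpk2 rose from 6.68 ± 1.79 to 28.7 ± 8.11 CPM (2.10, SE 0.35, adjusted p = 0.0046), and neither passed at D80 (adjusted p = 0.26 for Rsad2 and adjusted p = 0.37 for Cmpk2), although both did without D80WT replicate 3 (1.73, SE 0.55, adjusted p = 0.030 and 0.92, SE 0.28, adjusted p = 0.025).

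Mx1 and Mx2 are dynamin-like GTPases, and C57BL/6 mice carry a defective Mx1 allele. Mx1 stood at 6.54, 7.63 and 4.47 CPM in the D60WT libraries, 1.06, 6.31 and 6.80 in D80WT, 12.4, 14.1 and 23.4 in D60SV and 4.41, 5.23 and 5.92 in D80SV. D80WT replicate 1 was far below the other wild-type libraries, and the D60 groups did not overlap. It passed in neither genotype comparison (1.42, SE 0.50, adjusted p = 0.19 and 0.14, SE 0.50, adjusted p = 0.85), but the D60 difference passed without D80WT replicate 1 (1.42, SE 0.27, adjusted p = 0.0089). Mx2 stood at 0.123, 0.753 and 0.428 CPM in the D60WT libraries, 0.406, 0.441 and 0.910 in D80WT, 4.35, 3.46 and 4.60 in D60SV and 1.59, 2.14 and 2.60 in D80SV. It passed at both ages (3.19, SE 0.49, adjusted p = 0.0022 at D60 and 1.84, SE 0.46, adjusted p = 0.0081 at D80), with D60SV above D80SV in every library (adjusted p = 0.089). Trim30a, a regulator of Toll-like receptor signalling, was at 2.18 ± 0.828 and 7.83 ± 2.95 CPM at D60 (1.83, SE 0.43, adjusted p = 0.034) and at 3.57 ± 0.954 and 10.1 ± 5.32 CPM at D80 (1.49, SE 0.41, adjusted p = 0.013). Its D60 call ended without D60WT replicates 1 or 3, D80WT replicate 2 or D60SV replicates 2 or 3 (adjusted p = 0.051 to 0.14, 1 library left out at a time), and its D80 call without D80SV replicate 3 (adjusted p = 0.066).

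The last 8 genes are induced by interferon and have less settled roles. Of these 7 passed at D60 and 5 at D80, and 7 were lower in D80SV than in D60SV. Apol9b, a cytosolic apolipoprotein L, had the largest D60 change of all 40 genes, set against only 37 counts in the D60WT group. It stood at 0.370, 0.895 and 0.571 CPM in the D60WT libraries, 0.447, 0.926 and 3.08 in D80WT, 24.8, 18.6 and 28.7 in D60SV and 2.97, 4.02 and 6.81 in D80SV, and its copy Apol9a at 3.40, 4.19 and 3.71 CPM in the D60WT libraries, 0.894, 7.63 and 12.7 in D80WT, 52.9, 38.8 and 69.1 in D60SV and 6.31, 9.40 and 9.57 in D80SV. Both were highest in the 3 D60SV libraries, and D80WT replicate 3 lay inside the D80SV range for Apol9b and above it for Apol9a. Apol9b gave 5.26, SE 0.64, adjusted p = 4.6e-04 at D60 and 1.64, SE 0.55, adjusted p = 0.033 at D80, the latter lost without D80WT replicates 1 or 2 or D80SV replicates 2 or 3 (adjusted p = 0.058 to 0.12, 1 library left out at a time), and Apol9a gave 3.83, SE 0.65, adjusted p = 0.0046 and 0.26, SE 0.58, adjusted p = 0.75. The 2 share 52.3% of the 50-base words of Apol9b, so reads could move between them. Rtp4, a chaperone of membrane receptors, stood at 2.72, 3.53 and 3.24 CPM in the D60WT libraries, 2.88, 3.31 and 8.71 in D80WT, 51.1, 40.9 and 54.0 in D60SV and 15.3, 16.4 and 24.4 in D80SV. The transgenic libraries were clear of wild-type at both ages (3.94, SE 0.39, adjusted p = 1.1e-04 and 1.92, SE 0.36, adjusted p = 0.0016). Lgals3bp, which encodes a secreted glycoprotein, stood at 206, 191 and 207 CPM in the D60WT libraries, 256, 276 and 311 in D80WT, 792, 661 and 665 in D60SV and 507, 461 and 480.0 in D80SV. Its libraries followed the order D60SV, D80SV, D80WT, D60WT with no overlap between neighbours (1.81, SE 0.13, adjusted p = 1.5e-05 at D60 and 0.78, SE 0.13, adjusted p = 6.6e-04 at D80), and the step between the wild-type ages did not pass (adjusted p = 0.28).

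Xaf1, a pro-apoptotic protein, stood at 2.41, 4.29 and 3.57 CPM in the D60WT libraries, 3.13, 4.76 and 7.19 in D80WT, 28.4, 24.5 and 30.3 in D60SV and 8.32, 9.95 and 12.1 in D80SV. It rose at D60 (3.01, SE 0.30, adjusted p = 1.3e-04) and was higher at D80 (1.01, SE 0.29, adjusted p = 0.015), a call that ended without D80SV replicate 3 (adjusted p = 0.055). Ifi44 had values of 0.617, 0.989 and 1.81 CPM in the D60WT libraries, 2.15, 1.72 and 1.99 in D80WT, 12.3, 12.2 and 16.8 in D60SV and 6.28, 6.12 and 11.5 in D80SV, with no overlap between genotypes (3.57, SE 0.38, adjusted p = 1.7e-04 at D60 and 2.02, SE 0.35, adjusted p = 9.8e-04 at D80). Ifi35 was at 26.5 ± 0.697 and 63.1 ± 4.62 CPM at D60 (1.25, SE 0.22, adjusted p = 0.0066), and at 33.4 ± 14.1 and 39.0 ± 3.25 at D80 (0.22, SE 0.22, adjusted p = 0.44); without D80WT replicate 3 the D80 difference passed (0.62, SE 0.12, adjusted p = 0.0027). Ifi27l2a, a small hydrophobic protein, stood at 26.3, 39.5 and 39.2 CPM in the D60WT libraries, 24.3, 13.8 and 36.4 in D80WT, 43.9, 94.2 and 102 in D60SV and 37.1, 28.8 and 44.9 in D80SV. D60SV replicate 1, at 43.9 CPM, lay close to the highest wild-type library, at 39.5, and the other 2 D60SV libraries were well above it. The gene passed in neither genotype comparison (1.19, SE 0.36, adjusted p = 0.12 and 0.57, SE 0.36, adjusted p = 0.23), but the D60 difference passed without D60SV replicate 1 (1.49, SE 0.33, adjusted p = 0.030).

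Whether the genotype difference changed with age was tested by the interaction of genotype and age. It passed for 13 of the 40 genes, each with a smaller difference at D80, against 2.23% of all genes called in that direction. They included all 3 genes of the ADP-ribosylation group, 3 of 5 sensors and 5 of the 8 genes of the last group, and 0 of the Isg15 system and of the RNA-binding group. Yet all 5 genes of the Isg15 system had a negative value and an unadjusted p under 0.05 in the same test. Their median was -1.45, with a median SE of 0.513, against -1.41 and 0.336 in the ADP-ribosylation group. In the RNA-binding group 4 of 7 had an unadjusted p under 0.05, and the median was -0.872. The median over the 40 genes was -1.35. Lgals3bp (-1.03, SE 0.18, adjusted p = 0.012), Bst2 (-1.36, SE 0.26, adjusted p = 0.016) and Xaf1 (-2.00, SE 0.41, adjusted p = 0.020) had the smallest p-values. Ifit2 (0.67, SE 0.37, adjusted p = 0.31) and Slfn5 (0.44, SE 0.43, adjusted p = 0.59) were the 2 genes with a positive value, and neither passed. The count depended on single libraries: it was 31 without D80WT replicate 1 and 25 with DESeq2. It was 8 without D80WT replicate 2 or D80SV replicate 1, 7 without D60WT replicate 2 or D80WT replicate 3, and 6 without D60WT replicate 1. It was 5 without D60SV replicate 1, D80SV replicate 3 or the composition factor, 2 without D60WT replicate 3, 1 without D60SV replicate 3 or D80SV replicate 2, and 0 with sex as a covariate.

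**Figure D3:**
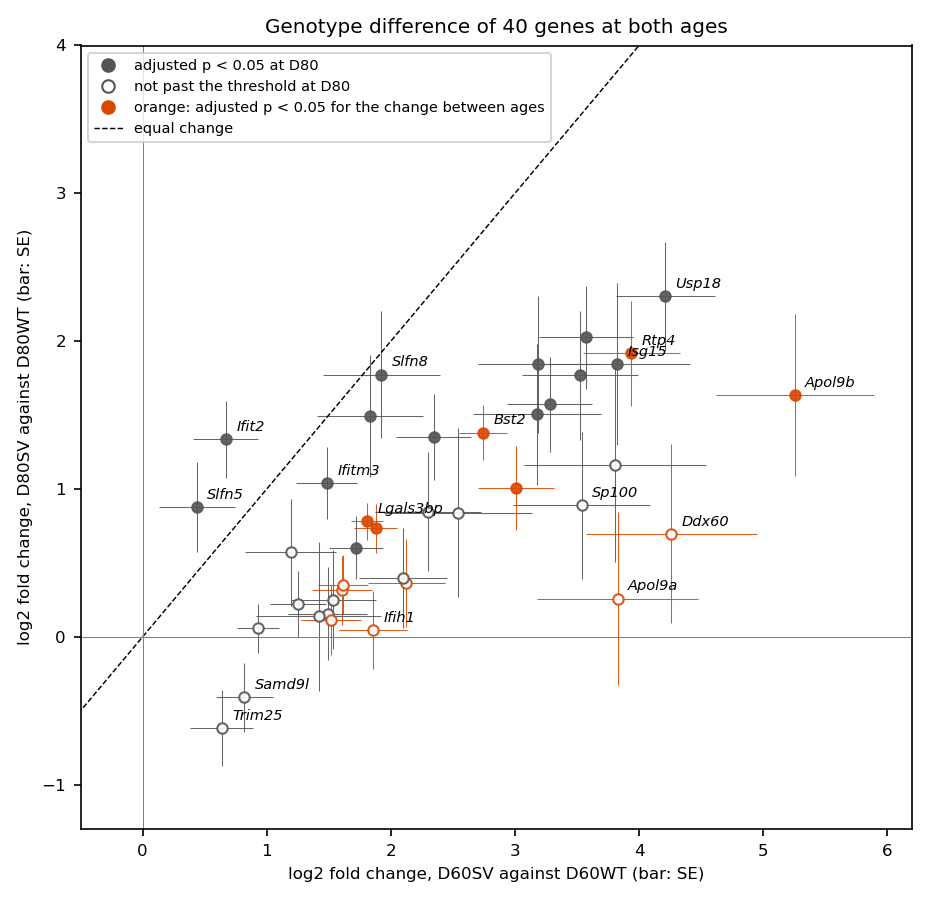
Log2 fold change of each of the 40 genes at D60 (x axis) and at D80 (y axis), with SE bars; filled points passed at D80, orange points passed the interaction, and the dashed line marks equal change. Ifit2 and Slfn5 lie above the line, and the other 38 genes below it.

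Between D60 and D80 in transgenic mice, the 26 genes that fell came from every role. The log2 fold change of Lgals3bp was -0.55, SE 0.13, adjusted p = 0.0066, and that of Xaf1 was -1.46, SE 0.28, adjusted p = 0.0028. Stat2 gave -1.02, SE 0.21, adjusted p = 0.0042, Samd9l -1.18, SE 0.23, adjusted p = 0.0032 and Eif2ak2 -0.82, SE 0.17, adjusted p = 0.0036. The lowest values were those of Apol9a (-2.67, SE 0.60, adjusted p = 0.0061) and Apol9b (-2.38, SE 0.52, adjusted p = 0.0055). Of the 27 calls between ages, 14 held in each of the 12 fits that left out 1 library. The total fell to 17 without D60SV replicate 3 and to 14 without D80SV replicate 2, and was 18 to 33 in the other fits. With no composition factor 14 genes were lower and 3 higher, against 1098 lower and 5154 higher of all 15369 genes. The median of all genes moved from 0.0227 to 0.388. Relative to the median of all genes, the median of the 40 was -1.04 with TMM and -1.03 without it. That scaling also changed the split of all calls from 49.6% to 82.4% higher between ages, from 46.8% to 83.6% higher at D80 and from 55.3% to 79.3% higher in the interaction.

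The upstream pathway was read from a list of 67 other genes, 46 of which passed the filter. At D60, 2 of these 46 were higher and 0 lower, a share of 4.35% against 3.66% of all genes called higher. At D80, 8 were higher and 9 lower, shares of 17.4% and 19.6%, close to the background of 19.4% and 22%. With no composition factor, 16 were higher and 1 lower at D80, as were 5104 and 1001 of all 15369 genes. Transcripts of the ligands were at or near 0. Of 18 type I genes, 15 had 0 counts in every library, including all interferon-alpha genes on the list, and so did Ifnl2 and Ifnl3 of type III. Ifnb1 had 1 count, in D60SV replicate 2. A count of 0 allows up to 3 counts, 0.0901 to 0.185 CPM depending on the library. Ifnz had 1, 2 and 2 counts in D60WT and 0 elsewhere. Ifne, an interferon of epithelia, had 4 to 19 counts in each library (log2 fold change 0.56, SE 0.46, adjusted p = 0.66 at D60), and Ifng, the type II ligand, had at most 3.

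None of 6 receptor genes passed at D60. Ifnar1 stood at 39.9, 34.1 and 34.1 CPM in the D60WT libraries, 39.6, 36.4 and 41.2 in D80WT, 42.7, 36.3 and 38.9 in D60SV and 44.6, 42.0 and 47.9 in D80SV, and the 2 genotypes overlapped at D60 (0.13, SE 0.11, adjusted p = 0.69). At D80, Ifnar2 was higher (0.95, SE 0.26, adjusted p = 0.014), and Ifngr1 (-0.67, SE 0.20, adjusted p = 0.021), Ifngr2 (-0.72, SE 0.25, adjusted p = 0.038), Ifnlr1 (-1.15, SE 0.36, adjusted p = 0.024) and Il10rb (-0.59, SE 0.13, adjusted p = 0.0049) were lower. With no composition factor Ifnar2 was still called, and the 4 lower calls ended, with adjusted p = 0.244 for Ifngr1, adjusted p = 0.295 for Ifngr2, adjusted p = 0.0868 for Ifnlr1 and adjusted p = 0.251 for Il10rb. The call of Ifnar2 ended without D80SV replicate 3 (adjusted p = 0.0501), that of Ifngr1 without D80WT replicate 2 or D80SV replicates 2 or 3 (adjusted p = 0.0631 to 0.0906), that of Ifngr2 without D60WT replicates 1 or 3, D80WT replicates 2 or 3, D60SV replicate 2 or D80SV replicates 1, 2 or 3 (adjusted p = 0.0506 to 0.171) and that of Ifnlr1 without D80WT replicates 2 or 3 or D80SV replicates 2 or 3 (adjusted p = 0.0624 to 0.103). The kinases Jak1 and Tyk2 passed at neither age.

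Cxcl10, a chemokine induced by interferons of types I and II, and Samhd1, which clears deoxynucleotides, were the 2 pathway genes that passed at D60. Cxcl10 stood at 0.432, 0.706 and 0.714 CPM in the D60WT libraries, 1.26, 1.24 and 1.08 in D80WT, 1.63, 2.71 and 3.53 in D60SV and 3.06, 5.01 and 5.73 in D80SV. It was higher at both ages (2.06, SE 0.37, adjusted p = 0.0068 at D60 and 1.94, SE 0.34, adjusted p = 0.0012 at D80), and its D80SV libraries overlapped D60SV (0.81, SE 0.33, adjusted p = 0.072). Samhd1 was at 33.2 ± 3.17 and 84.8 ± 10.8 CPM at D60 (1.35, SE 0.29, adjusted p = 0.020) and at 56.8 ± 29.6 and 59.4 ± 4.18 at D80 (adjusted p = 0.87). Its D60 call ended without D60WT replicates 1, 2 or 3 or D60SV replicate 3 (adjusted p = 0.0518 to 0.0987). Of the upstream sensing genes, 0 of 12 passed at D60. At D80, 5 were higher, among them Mb21d1, the DNA sensor cGAS (1.62, SE 0.27, adjusted p = 8.1e-04), Ifi204 (2.04, SE 0.44, adjusted p = 0.0036), Aim2 (1.62, SE 0.38, adjusted p = 0.0061) and Tlr7 (1.87, SE 0.48, adjusted p = 0.0092), and 2 were lower, the adaptors Mavs (-0.83, SE 0.13, adjusted p = 5.7e-04) and Ticam1 (-0.75, SE 0.21, adjusted p = 0.013). With no composition factor Mavs was still called (adjusted p = 0.0159) and Ticam1 was not (adjusted p = 0.141). The call of Ticam1 also ended without D80WT replicate 3 or D80SV replicates 2 or 3 (adjusted p = 0.0501 to 0.0726). Targets that respond mainly to interferon-gamma, such as Cxcl9 (0.49, SE 0.76, adjusted p = 0.86) and Ciita (1.15, SE 0.73, adjusted p = 0.54), did not pass at D60. The 4 such targets on the list had a median SE of 0.748 at D60, so smaller differences could be missed. At D80, 1 of the 4 was higher and 0 lower, with log2 fold changes from -2.25 to 1.38, and 1 was higher in D80SV than in D60SV.

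Cell type markers moved with genotype and age. The 40 genes summed to 825 to 903 CPM in D60WT, 817 to 1479 in D80WT, 2655 to 3168 in D60SV and 1500.0 to 1789 in D80SV; Lgals3bp and Trim25 made up 29.7% to 44.7% of that sum, which is not corrected for gene length. Of 4 leukocyte markers 0 passed at D60, and their sum was 10.3 to 27.4 CPM in D60WT, 21.9 to 51.9 in D60SV, 27.9 to 57.0 in D80WT and 99.4 to 198 in D80SV. All 4 were higher at D80. Macrophage markers summed to 38.0 to 109 CPM in D60WT, 108 to 186 in D80WT, 85.2 to 184 in D60SV and 309 to 401 in D80SV, with 0 of 9 higher at D60 and 7 of 9 at D80. Neutrophil markers summed to at most 2.72 CPM in the 9 libraries outside D80SV and to 14.6 to 135 in D80SV. T and NK cell markers summed to 19.2 to 26.4 CPM in D80SV, 3.86 to 8.38 in D60SV, 1.36 to 4.52 in D60WT and 2.76 to 87.1 in D80WT. Of these, 0 of 9 tested were higher at D60 and 1 of 9 at D80. B cell markers summed to 4.02, 5.38 and 43.8 CPM in the D80SV libraries and 0.407 to 2.17 in D60SV. In wild-type they summed to 0.565 to 0.952 CPM in D60WT and 0.65 to 3.53 in D80WT, with 0 of 4 higher at D60 and 3 of 4 at D80. The 6 markers of plasmacytoid dendritic cells summed to 206 to 283 CPM in D60WT, 189 to 636 in D80WT, 200.2 to 219 in D60SV and 190.2 to 249 in D80SV, with 1 of 5 tested higher at D60, and 2 higher and 1 lower at D80. Klk1 and Tcf4, which other cells also express, made up most of that sum. Of the more specific markers, Cd209d had 0 to 10 counts in every library, and Siglech had 0 to 10 in the 9 libraries outside D80SV and 33, 17 and 48 in D80SV. Siglech was not higher at D60, with 9 counts in the D60WT group and 6 in D60SV. Ccr9 had 14 counts in the D60WT group, 55 in D80WT, 29 in D60SV and 95 in D80SV. Pacsin1, also on the list, had 77, 90, 323 and 2136 in the same order. Its group means were 1.344, 1.275, 4.495 and 23.43 CPM. Those of the neuroendocrine marker Scg3 were likewise highest in D80SV, at 8.691, 10.36, 40.6 and 196.1 CPM. Which cells the Pacsin1 counts came from was not tested. The leukocyte, macrophage and neutrophil sums were highest in D80SV, and the sum of the interferon-induced genes in D60SV.

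**Figure D4:**
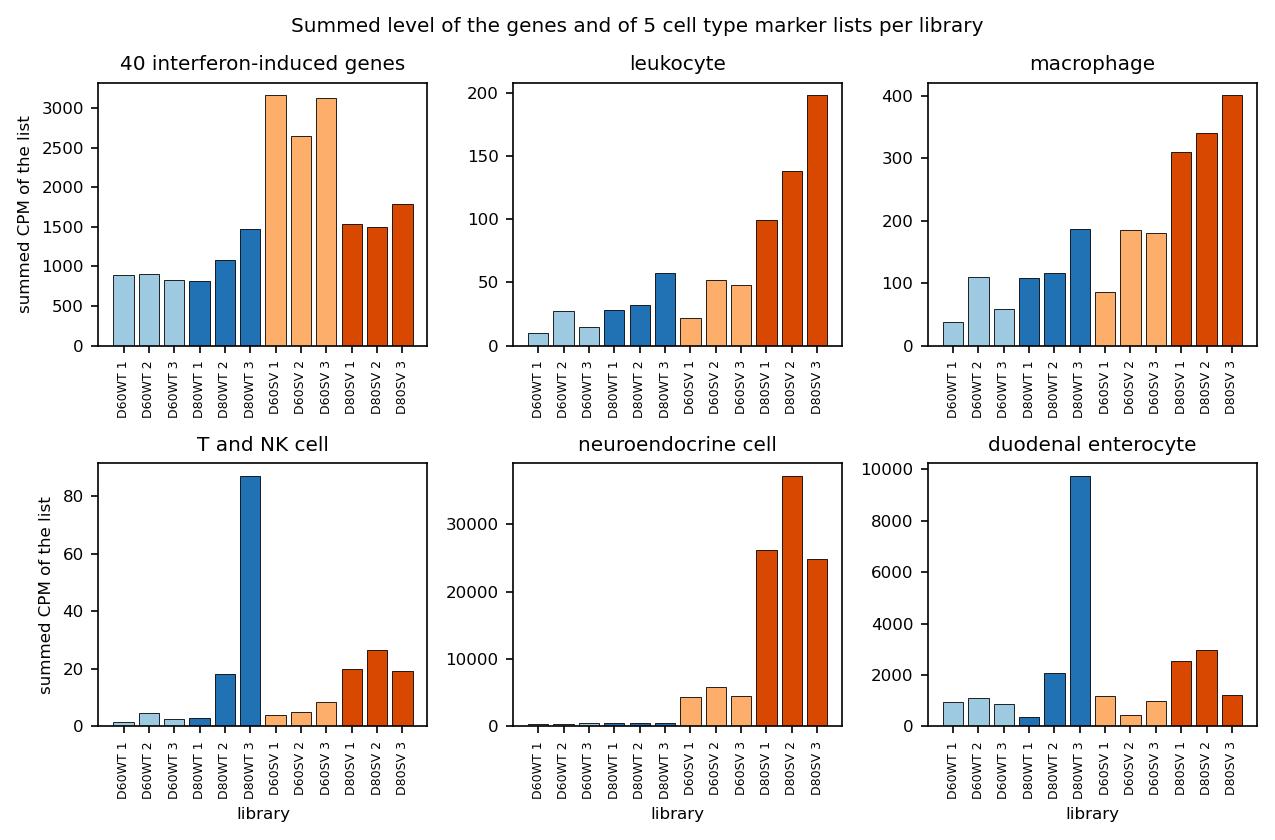
Summed CPM of the 40 interferon-induced genes and of 5 marker lists in each of the 12 libraries, coloured by group, on linear axes from 0. The 40 genes peak in the 3 D60SV libraries, leukocyte, macrophage and neuroendocrine markers in D80SV, and T and NK cell and duodenal markers in D80WT replicate 3.

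Neuroendocrine markers, all 7 of which passed at both ages, summed to 293 to 534 CPM in wild-type, 4286 to 5863 in D60SV and 24780.0 to 37170.0 in D80SV. Smooth muscle markers summed to 5615 to 11590.0 CPM in D60SV and 13120.0 to 16870.0 in D60WT, and to 2276 to 2351 in D80SV and 9120 to 15180 in D80WT. Of 6 such markers 0 passed at D60, and all 6 were lower at D80. Pancreatic acinar markers summed to 147, 45.7 and 0.724 CPM in the 3 D60SV libraries and to at most 1.58 in wild-type other than D80WT replicate 3, which held 268, and to 638 to 3669 in D80SV, with the amylase gene Amy2a5 at 0 throughout. Duodenal markers summed to 443 to 1161 CPM in D60SV and 1202 to 2972 in D80SV. The 3 D60SV libraries differed widely in pancreatic transcripts, and the mean log2(CPM + 0.5) of the 40 genes was 5.26 to 5.55 in them. The part of these shifts in the levels of the interferon-induced genes was not tested.

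Since sex and genotype coincide at D60, the effects of the 2 cannot be told apart within that age. Set against the D80WT libraries, which hold Xist as the D60SV libraries do but are older, 26 of the 40 genes were higher and none lower in D60SV, with a median of 1.53. Of all 15369 genes tested, 439 were higher and 39 lower in that comparison, with a median of -0.0324. Bst2 gave 2.5, SE 0.19, adjusted p = 2.7e-05, Lgals3bp 1.33, SE 0.13, adjusted p = 1.1e-04, Usp18 3.74, SE 0.38, adjusted p = 1.7e-04 and Isg15 3.73, SE 0.58, adjusted p = 0.0033. Of the 34 genes called against D60WT 25 were called here too, and Ddx58, Dtx3l, Helz2, Herc6, Ifit1, Slfn8, Sp100, Trim30a and Uba7 were not. With sex as a covariate, an effect that only D80SV replicate 1 identifies, all 40 genes kept a positive difference at D60, with a median of 1.86 in place of 2.01. The median SE grew from 0.343 to 0.588, and 5 genes passed in place of 34: Bst2 (2.34, SE 0.30, adjusted p = 0.0065), Lgals3bp (1.92, SE 0.23, adjusted p = 0.0055), Usp18, Irf9 and Rtp4. At D80, where all D80WT libraries and 2 of the D80SV libraries hold Xist, 18 genes were higher without D80SV replicate 1, all of them among the 20 called with it. In that fit 2853 of all 15566 genes tested were higher and 2862 lower.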

How the data were processed

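RNA of bulk pylorus from 12 libraries was sequenced, made with a stranded mRNA kit per the labels' protocols. The authors deposited raw counts per gene symbol for 23420 genes, with no normalization; a deposited normalised table was not used. STAR 2.5.3a, HTSeq 0.9.1, edgeR 3.16.5 and mm10 are named in the submitters' processing notes, without their roles. For the counting, the annotation and strandedness were not given in the sources used here. Groups came from the titles and the genotype and age labels.

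In R 4.3.3, edgeR 4.0.16 kept 15369 genes by filterByExpr with the 4 groups (99.975% of counts) and scaled them by TMM (factors 0.805 to 1.30). One quasi-likelihood model over all 12 libraries (8 residual degrees of freedom, biological coefficient of variation 24.2%) gave every comparison and the interaction. Every p printed as adjusted is a Benjamini-Hochberg value from edgeR's quasi-likelihood test over all genes tested (15369 with all libraries; each alternative over the genes its own filter kept), with a threshold of 0.05, unless DESeq2 is named. Fold changes are log2. SE is a standard error worked back from the test, as the absolute log2 fold change divided by the square root of the F statistic. The procedure was tested on simulated counts. No 2 libraries agreed within sampling noise.

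The 40 genes, their roles and the other lists were chosen with earlier results of these data known. Values in every library are given for the 2 genes of each role with the smallest p at D60 and at D80, for up to 6 genes with the smallest p in the interaction, and for those that passed in neither genotype comparison. Ddx60, Ifit1, Slfn5, Apol9a and Apol9b were added after their values were seen, as were Cxcl10 and Ifnar1. Of the 67 other pathway genes, the rule names up to 6 with the smallest p past the threshold at each age and every ligand with more than 3 counts; other names were added after their values were seen. The alternatives, fixed with those results known, were DESeq2 size factors, no composition factor, no filter on low counts, DESeq2 1.42.0, only the 2 groups compared, a block for the replicate number, sex as a covariate, D80WT as the control of D60SV, and each library left out in turn. Coordinates and 50-base words are from GENCODE M21 (GRCm38), and promoter windows from RefSeq (GRCm38.p6). Figures were drawn with matplotlib 3.10.9. One further pathway gene is not reported here. Floors cover counting error only.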

Additional observations from a re-analysis of the deposited data

Results flagged for a closer look

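The genotype difference was smaller at D80 than at D60 for 13 of the 40 genes by edgeR's interaction test. In order of p-value, the D80 log2 fold change minus the D60 log2 fold change was -1.03 for Lgals3bp, -1.36 for Bst2, -2.00 for Xaf1, -1.14 for Irf9 and -1.81 for Ifih1. It was -1.26 for Parp9, -3.62 for Apol9b, -1.41 for Dtx3l, -3.57 for Apol9a and -1.76 for Parp14. For Ddx60 it was -3.56, for Rtp4 -2.02 and for Ddx58 -1.29. All 13 differences were negative, and adjusted p ranged from 0.012 to 0.048. Sex of the libraries differed between genotypes at D60 in every library and at D80 in D80SV replicate 1 alone, and with sex as a covariate 0 of the 13 passed. In that fit the median interaction of the 40 genes was -1.10 in place of -1.35, and the median SE was 0.819 in place of 0.465.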

How the results depend on the processing

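With no composition factor, 17 of the 40 genes were called between ages in transgenic mice and 5 in the interaction. Of all genes tested, 40.7% and 4.27% were called in that setting, so the count of 17 between ages stood near its background. With DESeq2, 992 genes, among them 5 other pathway genes, were called at D60, 1 of the 40 genes and 254 in all between ages in wild-type, and 25 of the 40 and 1745 in all in the interaction. With only the 2 groups compared, 5 genes were called between the wild-type ages, which also differ in sex, 1 of them higher and 4 lower. In that setting 11 other pathway genes were called at D80, as were 32% of all genes tested. With D80WT as the control, 1 other pathway gene was called in D60SV. With sex as a covariate, 5 of the 40 genes, 85 genes in all and 0 other pathway genes were called at D60, 1 gene between ages in wild-type, and 0 of the 40 and 99 in all in the interaction. Leaving out 1 library at a time gave 27 to 37 of the 40 genes at D60, 13 to 29 at D80, 14 to 33 between ages in transgenic mice, 0 to 4 in wild-type and 1 to 31 in the interaction. For all genes the ranges were 378 to 736 at D60 (599 with all libraries), 4416 to 7079 at D80 (6354), 3507 to 6594 between ages in transgenic mice (5490), 0 to 396 in wild-type (0) and 193 to 2419 in the interaction (768). For the other pathway genes they were 1 to 4 at D60 (2) and 8 to 23 at D80 (17). The causes were not tested.

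For the 40 genes in the 2 genotype comparisons and between transgenic ages, 2062 recomputed values kept their direction and side of the threshold, 179 no longer passed, 59 newly passed and 20 turned direction, each of the last for a gene not called in that comparison. At D80, Samd9l was 0.0303 with no composition factor. Between ages in transgenic mice, Ifitm3 was 0.019 with DESeq2 size factors and with DESeq2, 0.36 with no composition factor and 0.18 with sex as a covariate. With 1 library left out, D80 log2 fold changes ran from -0.24 to 0.46 for Ifih1, -0.16 to 0.64 for Helz2, -0.0427 to 0.87 for Uba7, -0.11 to 0.36 for Dtx3l, -0.0352 to 0.19 for Eif2ak2, -0.34 to 0.50 for Mx1 and -0.27 to 0.99 for Apol9a. Between ages they ran from -0.27 to 0.18 for Ifitm3 and -0.13 to 0.69 for Trim30a.

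The replicate numbers of the titles did not pair the libraries: over 18 pairs of same-numbered libraries, the correlation of their deviations from group means averaged -0.0128 (-0.385 to 0.422), and 4 of 12 libraries correlated best with their own number. With the replicate number as a block, 33 of the 40 genes were called at D60, 20 at D80, 28 between ages in transgenic mice, 0 in wild-type and 10 in the interaction. The shares of all genes tested were 3.98%, 39%, 33.8%, 0% and 4.13% in the same order. Low counts limit the precision for the interferon ligands, Mx2, Slfn8, Apol9b and Ifi44. The last 4 had 27, 32, 37 and 69 counts in the D60WT group.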
